A study of Homo sapiens with 2 samples.

Results

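hsa-miR-1-3p, hsa-miR-206 and hsa-miR-133a-3p (hsa, for human, is left out below) are among the miRNAs best known from skeletal and heart muscle, and their counts were taken from sequencing of the small RNA in small extracellular vesicles (sEVs) shed by mammary epithelial cell lines. These 3 members were found by name among the 1315 mature miRNAs listed with counts, and all 3 were listed. They were chosen by their muscle origin and with their counts in these libraries already known, so the counts are given as a description and no test is attached to them. Each of the cell lines MCF-10A and MDA-MB-231 gave sEVs for 1 of 2 libraries, so no difference between the cell lines has a replicate check. MCF-10A comes from non-cancerous mammary epithelium, whereas MDA-MB-231 cells derive from triple-negative breast cancer. The labels give both as wild type (WT) epithelial cells and name no treatment. Medium free of extracellular vesicles was conditioned by nearly confluent cells, and the vesicles were pelleted from it by ultracentrifugation. The labels describe a DMEM and fetal bovine serum culture of MDA-MB-231 cells only, and no library of cell-free medium was analysed here.

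Muscle miRNAs are transcribed in groups. miR-1 and miR-133a are cut from shared transcripts in skeletal and heart muscle, whereas miR-206 and miR-133b share a locus that is active mainly in skeletal muscle. In muscle precursor cells miR-1 and miR-206 are known to favour differentiation, in part by repressing the histone deacetylase HDAC4, and miR-133 is known to restrain it, in part by repressing the transcription factor SRF. A miRNA recognises its targets mainly through bases 2 to 8 of its 5′ end, the seed. A seed relative can therefore be present without its family sharing a gene, and a cluster partner can share a transcript without sharing a target.

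The mature sequences show which members are seed relatives and which could be mistaken for each other in counting. They are written 5′ to 3′ as RefSeq gives them for GRCh38.p14, with the seed in capitals.
miR-1-3p: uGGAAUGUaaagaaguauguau
miR-206: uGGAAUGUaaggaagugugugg
miR-133a-3p: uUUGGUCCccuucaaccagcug
miR-133b: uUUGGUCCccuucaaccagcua

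miR-1-3p and miR-206 had the same seed, GGAAUGU, and were identical at 18 of 22 positions. Counted from the 5′ end of miR-1-3p, the substitutions to miR-206 are A11G, A17G, A21G and U22G. The first of these lies well inside the molecule, so a read of either miRNA that reaches position 17 differs from the other at 2 or more bases. miR-613 also carries the seed GGAAUGU and was not among the listed miRNAs. miR-133a-3p and miR-133b had the seed UUGGUCC and differed at 1 of 22 positions, the last, by G22A. A read of miR-133a-3p that lost its final base could not be told from miR-133b. The GC content of the mature sequence was 27.3% in miR-1-3p, 45.5% in miR-206 and 54.5% in miR-133a-3p, beside a median of 52.4% over the 1175 listed miRNAs that matched RefSeq.

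miR-1-3p is encoded at 2 loci, so its counts cannot be divided between them. On the plus strand of chromosome 20 the mature sequence spans chr20:62554351-62554372 in MIR1-1, inside an intron of the non-coding gene MIR1-1HG (GENCODE release 29). On the minus strand of chromosome 18 it spans chr18:21829015-21829036 in MIR1-2, where the hairpin overlaps an exon of the non-coding MIR133A1HG and lies in an intron of MIB1 on the other strand. miR-133a-3p also has 2 loci, beside these. MIR133A2 lies 10.5 kb downstream of MIR1-1 on the same strand, with the mature sequence at chr20:62564970-62564991. MIR133A1 lies 3.22 kb downstream of MIR1-2 on the same strand, with the mature sequence at chr18:21825712-21825733. miR-206 is encoded once, on the plus strand at chr6:52144401-52144422, and MIR133B starts 4.5 kb further along the same strand. Stretches of 18 bases from miR-1-3p occurred in the annotated transcripts of MIR1-1, MIR1-2 and MIR133A1HG and of no other gene. For miR-206 MIR206 was the only gene.

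The MCF-10A library held 11529 counts in total and the MDA-MB-231 library 18397. On the scale of counts per 1000000 (CPM) a lone count was worth 86.7 and 54.4. miR-182-5p took 46.6% and 51% of these totals and sets the scale for every other miRNA. Where a miRNA had 0 counts, up to 3 counts remain possible as a one-sided limit, a share of 0.026% in the MCF-10A library and 0.0163% in the MDA-MB-231 library. The two-sided exact intervals drawn for a count of 0 end higher, at 0.032% and 0.02%. All intervals are 95% intervals and cover counting error alone, because reads amplified by PCR and carrying no molecular identifier do not each stand for 1 molecule. As a description of the libraries, 6 of 7 epithelial miRNAs (85.7%) were counted in each. This stands beside 34.8% of all listed miRNAs in the MCF-10A library and 36.8% in the MDA-MB-231 library. Both cell lines are labelled epithelial, so this number cannot tell the libraries apart. The summed shares were 0.685% in the MCF-10A library and 0.114% in the MDA-MB-231 library. miR-205-5p, a miRNA of basal epithelium, had 41 counts in the MCF-10A library and 0 in the MDA-MB-231 library, and so made up 41 of the 79 counts of this list in the former. Not every miRNA of the list had fewer counts in the latter, since miR-200b-3p had 3 and 9 counts, miR-141-3p had 0 and 2 and miR-429 had 1 and 2.

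miR-1-3p was the only member with more than 1 count in a library. It had 11 counts in the MCF-10A library, a share of 0.0954% (exact binomial interval 0.0476 to 0.171%). In the MDA-MB-231 library it had 3 counts, a share of 0.0163% (0.00336 to 0.0476%). The MCF-10A library held the higher count in spite of its lower total. By level miR-1-3p came after 80 miRNAs in the MCF-10A library and after 147 in the MDA-MB-231 library, with 41 miRNAs, itself included, on the same count in the latter. Of the miRNAs with any count, 81.4% were below it in the MCF-10A library and 61.2% in the MDA-MB-231 library.

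miR-206, its seed relative, had 1 count in the MCF-10A library and 0 in the MDA-MB-231 library. The single count is a share of 0.00867% (0.00022 to 0.0483%), a value that 221 miRNAs of that library had in common, itself included. At an equal share the MDA-MB-231 library would have given 1.6 counts, so a difference between the libraries was not detectable at this depth. miR-206 was thus near the limit of counting in the MCF-10A library and at 0 in the MDA-MB-231 library.

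miR-133a-3p, the cluster partner of miR-1-3p at both of its loci, had 0 counts in the MCF-10A library and 0 in the MDA-MB-231 library. miR-133b, from which it differs only at the last base, also had 0 counts in each library. A loss of miR-133a-3p reads to miR-133b therefore does not appear in these counts. In the MCF-10A library the share that 0 counts allow, 0.026%, lay below the lower limit for miR-1-3p, 0.0476%. The two-sided limit of 0.032% did so too. By counting error alone, a share of miR-133a-3p reads as high as that of miR-1-3p would have been seen there. Differences in adapter ligation between the 2 sequences were not tested. In the MDA-MB-231 library the allowed share, 0.0163%, was that of miR-1-3p itself, and the depth could not tell the 2 apart.

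Within the MCF-10A library miR-1-3p had 11 times the count of miR-206, with an exact conditional binomial interval of 1.6 to 473. Against miR-133a-3p, at 0 counts, the interval of the ratio had a lower limit of 2.51 and no upper limit. It was the same against miR-133b. These ratios do not depend on how the libraries are scaled, but differences in adapter ligation between sequences remain in them and were not tested. In the MDA-MB-231 library all of these miRNAs were at or under 3 counts and no fold is given. miR-1-3p was thus not accompanied by its seed relative or its cluster partner at a like level in the MCF-10A library, and in the MDA-MB-231 library the depth did not allow an answer.

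How far a counted miRNA in these libraries is usually joined by its relatives was described over miRNAs with 6 to 22 counts in the MCF-10A library, which is within 2-fold of miR-1-3p. Among these other miRNAs 27 had a listed cluster partner, a miRNA encoded within 20 kb on the same strand, and for at least 20 of these (74.1%) a partner had 1 count or more. Partners with no entry in the RefSeq table are not in this count. For up to 7 no partner was counted, and for miR-1-3p none was counted either. One of the 7 was miR-200c-3p, with 19 counts, whose partner miR-141-3p had 0 counts. The other arm of that partner, miR-141-5p, had 3 counts but was not among the matched partners. For miR-200c-3p the lack of a counted partner thus came from the matching. Of 33 such miRNAs with a listed seed relative, at least 26 (78.8%) had a relative with 1 count or more. miR-1-3p did so through the single count of miR-206. For 18 of the 33 a relative had at least as many counts as the miRNA itself. Among the 18 were miR-199a-3p and miR-199b-3p, each the relative of the other, with 7 counts each. Whether such equal counts came from the same reads was not tested. In the MDA-MB-231 library, over 2 to 6 counts, a partner was counted for at least 31 of 41 miRNAs (75.6%). A seed relative was counted there for 36 of 52 (69.2%), with miR-199a-3p and miR-199b-3p, at 6 counts each, again among them. Relatives with no RefSeq entry are likewise left out of these counts. Family members share clusters and seeds with each other and are not independent, so no test was made and nothing is claimed to be particular to miR-1-3p.

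Between the libraries the share of miR-1-3p was lower in the MDA-MB-231 library by a ratio of 0.171, with an exact conditional binomial interval of 0.0306 to 0.647. At the share of the MCF-10A library 17.6 counts would have been found in the MDA-MB-231 library, where 3 were. On the log2 scale of CPM with a pseudocount of 1 the difference was −2.54, beside a median of −0.72 over the 109 miRNAs that reached 10 counts in either library, and 16 of these 109 had a lower value. Of the 109, 41.3% were at least 2-fold lower in the MDA-MB-231 library and 15.6% at least 2-fold higher. The interval of the ratio lay below 1 for 46.8%. A lower miR-1-3p was therefore shared with a large part of the miRNAs compared, and miR-1-3p entered the comparison with 1 count more than the minimum.

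**Figure D1:**
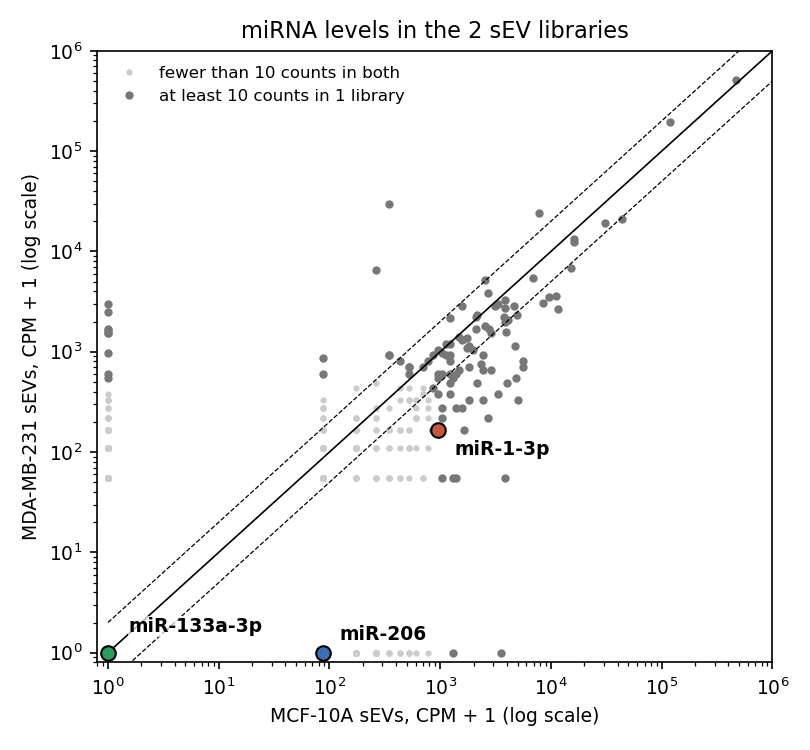
Level of each miRNA in the MDA-MB-231 library against the MCF-10A library as CPM + 1 on log axes, with points for single miRNAs that can lie on top of each other, a line for equal levels and dashed lines for 2-fold differences. miR-1-3p lies below the lower dashed line at a log2 difference of −2.54 with many other miRNAs, miR-206 on the lower edge with 1 count in the MCF-10A library, and miR-133a-3p in the corner with 0 in each library.

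The size of this difference rested on the scaling. The trimmed mean of M-values (TMM), median-of-ratios factors and a reduced total that omits the 10 most abundant miRNAs of either library raised every log2 difference by 0.67 to 0.73 and brought the median over the 109 miRNAs to between −0.05 and 0.01. Under TMM the ratio for miR-1-3p was 0.283 (0.0506 to 1.07). It was 0.273 (0.0489 to 1.03) with median-of-ratios factors and 0.284 (0.0509 to 1.07) with the reduced total. miR-1-3p was still more than 2-fold lower, as were 25.7% of the 109 under each, but the intervals now included an equal level. With these scalings a difference in miR-1-3p between the libraries was not detectable beyond counting error.

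The miRNAs whose pair of levels was nearest to miR-1-3p, among the other 108 with at least 10 counts in 1 library, were miR-23a-3p, miR-4453 and miR-340-5p. miR-23a-3p had 10 and 3 counts in the MCF-10A and the MDA-MB-231 library, a distance of 0.14 in log2(CPM + 1) over the 2 libraries. miR-4453 had 12 and 4 counts (0.43) and miR-340-5p had 12 and 5 counts (0.74). A miRNA with the same pair of levels to within counting error was thus easy to find, and a likeness over 2 libraries says nothing more.

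Other muscle miRNAs were read from a list of 16 names, of which 8 were listed with counts. The list adds miR-499a, encoded in an intron of the slow myosin gene MYH7B, and miR-486, encoded in the ankyrin gene ANK1 and abundant in both muscle and red blood cells. In the MCF-10A library 3 of the 8 had at least 1 count (37.5%), beside 34.8% of all listed miRNAs. In the MDA-MB-231 library 2 of the 8 did (25%), beside 36.8%. Detection of the list was thus close to that of any listed miRNA. miR-499a-5p, miR-499a-3p and miR-486-3p had 0 counts in each library. The other arms of the members' precursors, miR-1-5p and miR-133a-5p, and the heart muscle miRNAs miR-208a and miR-208b were not among the listed miRNAs.

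miR-486-5p stood apart from the rest of the list, with 29 counts in the MCF-10A library and 96 in the MDA-MB-231 library. Its share was higher in the MDA-MB-231 library by a ratio of 2.07 (1.36 to 3.26), opposite in direction to miR-1-3p. Without miR-486 the 6 remaining miRNAs summed to 12 counts in the MCF-10A library, a share of 0.104% (0.0538 to 0.182%). They summed to 3 counts in the MDA-MB-231 library, a share of 0.0163% (0.00336 to 0.0476%). miR-1-3p made up 11 of the 12 and all 3 of these counts.

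The summed share of miRNAs of blood and serum was higher in the MDA-MB-231 library, and nearly all of it was miR-451a. The 9 miRNAs of that list, miR-486-5p among them, took 12.6% of the counts in the MCF-10A library and 20.7% in the MDA-MB-231 library. Of the 9, 7 were counted in the MCF-10A library (77.8%, beside 34.8% of all listed miRNAs) and 8 in the MDA-MB-231 library (88.9%, beside 36.8%). The red blood cell miRNA miR-451a had 1360 of the 1453 counts of the list in the former and 3577 of 3801 in the latter, a ratio of shares of 1.65 (1.55 to 1.76). miR-486-5p, described above, also had an interval above an equal share. With the library total, the interval included an equal share for every other counted miRNA of the list. The other scalings raised every log2 difference by 0.67 to 0.73, and these intervals were not computed under them. The ratio was 0.985 (0.482 to 2.08) for miR-126-3p, a miRNA of endothelium and platelets. It was 1.07 (0.461 to 2.6) for the liver miRNA miR-122-5p, which had 10 and 17 counts. The leukocyte miRNA miR-150-5p was at 0 in each library and miR-223-3p had 0 and 3 counts. The part of these blood and serum miRNAs in the miR-1-3p counts was not tested.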

How the data were processed

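Small RNA libraries of MCF-10A and MDA-MB-231 sEVs (1 each) were grouped by the cell line in the labels. Raw counts of each mature miRNA were deposited by the authors beside CPM, which were recomputed from the counts and library totals with a largest difference of 4.81e-05. The submitters' processing notes name FastQC, cutadapt, Bowtie, edgeR and hg38. The miRBase release, the mismatches allowed and the handling of reads that match several miRNAs are not given in the sources used here. Some pairs of names had equal counts in each library, such as miR-3155a and miR-3155b with 0 and 28 counts. All values came from the counts.

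Shares carry exact binomial (Clopper-Pearson) intervals and ratios exact conditional binomial intervals. With 1 library per cell line no test was run. A log2 ratio of CPM with a pseudocount of 1, a minimum of 10 counts in 1 library and a 2-fold threshold gave the background. Python 3.11.15, numpy 2.4.6, scipy 1.17.1, pandas 2.3.3, R 4.3.3 and edgeR 4.0.16 (TMM) were used. The 2-fold comparison was tested on simulated data with a known total and a pass mark only at far greater depth than here. Sequences and loci came from RefSeq (1175 of 1315 names matched) and GENCODE release 29, both on GRCh38.

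The members and the lists (muscle, blood and serum, epithelial, neuronal) were chosen with earlier results of these data known. Named miRNAs were the members, their other arms and seed relatives, the lists, the 3 nearest in level and the most abundant. The description of partners, with miR-200c-3p and miR-141-3p as its example, was chosen after values were seen.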

Additional observations from a re-analysis of the deposited data

How the results depend on the processing

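The count of miRNAs at least 2-fold lower in the MDA-MB-231 library, 45 of 109 with the library total, was 28 under TMM, 28 with median-of-ratios factors and 28 with a reduced total that omits the 10 most abundant miRNAs of either library. It was 26 at a 4-fold threshold. With no count minimum it was 288 of 684 (42.1%) and with a minimum of 50 counts 12 of 30 (40%), shares close to the 41.3% reported. The count at least 2-fold higher, 17 of 109 (15.6%), was 242 of 684 (35.4%) with no minimum and 5 of 30 (16.7%) with a minimum of 50 counts. miR-1-3p was among the lower miRNAs in each of these settings except the minimum of 50 counts, which it did not reach. Against that reduced total its share was 0.376% in the MCF-10A library and 0.107% in the MDA-MB-231 library, which follows from the smaller total. Its log2 difference was −2.48 with a pseudocount of 10 CPM and −2.00 with 100 CPM. With at least 10 counts required, miR-1-3p and miR-486-5p, 2 of the 8 listed miRNAs of the muscle list, were detected in the MCF-10A library. The share over all listed miRNAs was 6.69% there. In the MDA-MB-231 library only miR-486-5p, 1 of the 8, was detected, beside 6.39% of all listed miRNAs. Adding miR-133b to miR-133a-3p left 0 counts in each library. Sums over both arms were not run, because the other arms were not among the listed miRNAs. No paired analysis was possible because each cell line had a lone library, and leaving out a library would leave no comparison. Depth is the main limit, since 1 count is 0.00867% of the MCF-10A library and 0.00544% of the MDA-MB-231 library.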

Other observations

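Brain-type miRNAs were read as another group known mainly from a tissue other than epithelium. Of the 3 that were listed with counts, miR-9-5p, which acts in neural progenitors, had 44 counts in the MCF-10A library and 36 in the MDA-MB-231 library. miR-128-3p, a miRNA abundant in brain, had 20 and 25 counts. miR-124-3p, a defining miRNA of neurons, had 0 and 1. Their summed share was 0.555% in the MCF-10A library (exact binomial interval 0.428 to 0.708%) and 0.337% in the MDA-MB-231 library (0.258 to 0.432%). miR-9-5p and miR-128-3p thus had more counts than miR-1-3p in each library, and miR-124-3p had fewer.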
